A study of Mus musculus with 6 samples.

Results

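Expression was described for 10 genes of the perineuronal matrix and of the proteins that bind and cut it, namely Ptprz1, Adamts4, Bcan, Ncan, Vcan, Acan, Hapln1, Hapln4, Tnr and Tnc. They were matched by name in a table of isoforms from mouse hippocampus and account for 10 of 53354 gene symbols and 41 of 133944 isoforms. Ptprz1 and Adamts4 were chosen by how their isoforms differed between the genotypes in these same libraries, so their values in that comparison are a description and carry no test. The other 8, called the matrix genes here, were listed for what their proteins do.

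Hippocampal RNA was sequenced from C57BL/6 mice aged 3 months, 3 of the genotype N-cre and 3 of the genotype N-cre;Fox1, with 1 library per mouse. Both groups carry Nes-cre, a Cre recombinase driven by the nestin promoter. The N-cre;Fox1 mice carry in addition 1 allele of R26-Rbfox1, in which an Rbfox1 cDNA at the Gt(ROSA)26Sor locus follows a CAG promoter and a STOP cassette between loxP sites that Cre removes. Per the study's methods, that allele was made in embryonic stem cells of a strain other than C57BL and then backcrossed for about 10 generations. The question asked of the libraries was which isoforms differ when Rbfox1, a splicing factor of neurons that binds RNA, is raised. In the hippocampus the study saw this Cre act in granule and pyramidal neurons, whereas the RNA is from all cells of the tissue. Values are expected counts, the number of read pairs that RSEM assigned to each annotated isoform, normalized between libraries by the TMM method. The expected counts summed to 40463587 to 62141336 per mouse, and those of the 10 genes to 43463 to 65660. An isoform or gene was tested with edgeR's quasi-likelihood test where it passed a filter on low counts, and p-values were adjusted over all 50556 isoforms or all 18924 genes tested.

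Some features of the libraries touch what follows. Rbfox1 summed over its isoforms had normalized counts of 15286, 14456 and 14698 in N-cre replicates 1, 2 and 3, and of 15939, 13571 and 15283 in N-cre;Fox1 replicates 1, 2 and 3, which overlapped. Rbfox1-202 was at 1753, 1778 and 1881 in N-cre and at 2430, 2167 and 2353 in N-cre;Fox1 mice, without overlap (log2 fold change 0.36, 95% confidence interval 0.22 to 0.50, adjusted p = 0.623 in edgeR over all isoforms). The 6 hippocampal markers examined were present in every library, and Wfs1, a marker of CA1 pyramidal cells, was at 11496, 9551 and 8801 in N-cre and at 8379, 8437 and 6577 in N-cre;Fox1 mice, without overlap (log2 fold change -0.35, adjusted p = 0.813 in edgeR). N-cre replicate 3 and N-cre;Fox1 replicate 2 stood apart by transcripts of the choroid plexus, whose 3 markers summed to 116145 and 261437 in them and to 1333 to 1790 in the other 4. Xist was at 23514 and 22029 in replicate 1 of each genotype and at 17.3 to 22.1 in the other 4, so each group held 1 mouse with high Xist. The summed counts of 6 astrocyte markers were 190975, 185819 and 183735 in N-cre and 214107, 196198 and 203723 in N-cre;Fox1 mice, without overlap. Of the 6 markers 4 had log2 fold changes above and 2 below 0, from -0.14 for Aldh1l1 to 0.38 for Gfap, and in edgeR 0 passed the adjusted test, which 0.0264% of all genes did, while the 4 above 0 had an unadjusted p under 0.05, which 6.19% of all genes had.

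The perineuronal matrix is a mesh around nerve cells and their synapses, dense as perineuronal nets around parvalbumin interneurons. Lecticans, which are chondroitin sulfate proteoglycans, bind hyaluronan with the help of link proteins and are tied to each other by tenascins, and ADAMTS proteases cut their core proteins. Ptprz1 is made by astrocytes and by cells of the oligodendrocyte lineage, and Adamts4 in adult brain mainly by oligodendrocytes.

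Ptprz1 encodes a receptor tyrosine phosphatase that is itself a chondroitin sulfate proteoglycan and binds pleiotrophin, midkine, contactin and tenascins. It lies on chromosome 6 of mm10, chr6:22875502-23052916, on the forward strand, and its 3 main isoforms differ at exon 12, which encodes most of the extracellular stretch that carries chondroitin sulfate. Ptprz1-201 is the long receptor, with 30 exons, 2312 codons and an exon 12 of 3547 bases. Ptprz1-204 is the short receptor. Its exon 12 stops after 1000 bases at an inner splice site, which removes 2547 bases or 849 codons of coding sequence, and it encodes 1463 codons. Ptprz1-206 encodes phosphacan, the secreted form without the membrane span and the phosphatase domains. Its 12 exons end in exon 12, which runs 1932 bases past the splice site used by Ptprz1-201. Ptprz1-201 is also annotated with longer ends. Its exon 1 has 383 bases against 108 in Ptprz1-204 and 163 in Ptprz1-206, and it ends at chr6:23052916 against chr6:23052617 for Ptprz1-204. The sequences at which these forms part in exon 12 are shown, since reads across them are among those that separate the forms. In the first and second, capitals mark the first 30 bases of exon 13 (chr6:23007274-23007303), which follow chr6:23002717-23002746 in Ptprz1-201 and chr6:23000170-23000199 in Ptprz1-204. In the third, chr6:23002717-23002751, capitals mark the stop codon that Ptprz1-206 reaches by reading past the splice site.
Ptprz1-201: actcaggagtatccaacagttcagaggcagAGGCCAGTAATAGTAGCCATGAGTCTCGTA
Ptprz1-204: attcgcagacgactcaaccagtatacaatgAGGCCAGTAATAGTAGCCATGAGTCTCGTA
Ptprz1-206: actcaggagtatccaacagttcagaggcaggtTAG

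**Figure D1:**
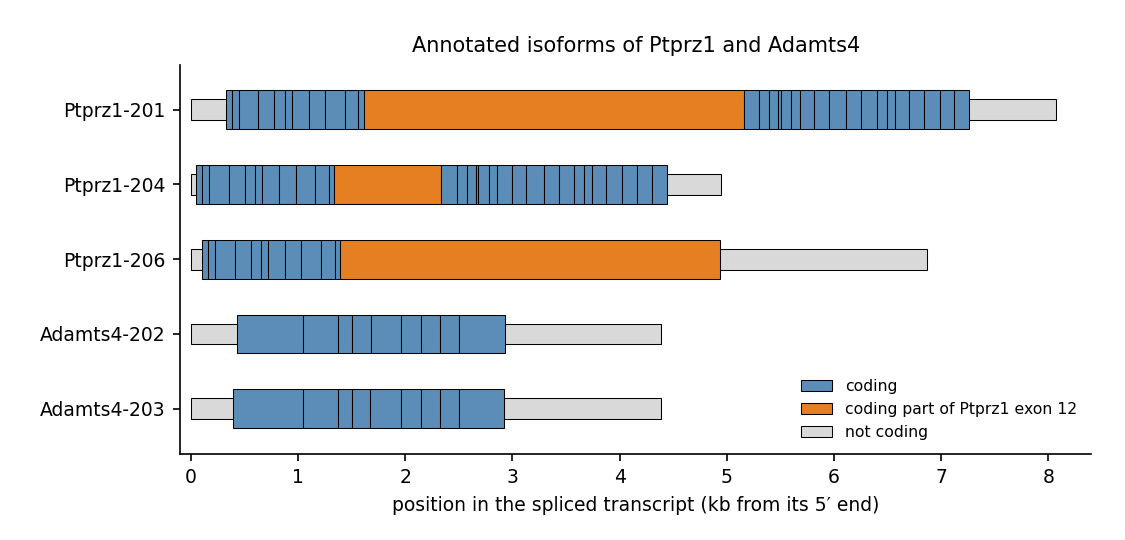
The x axis is the position in the spliced transcript in kb from its 5′ end, and each box is an annotated exon of the isoform named on the left, tall and blue where coding, orange for the coding part of exon 12 of Ptprz1 and low and grey where not coding. Exon 12 has 3547 bases in Ptprz1-201 and 1000 in Ptprz1-204, Ptprz1-206 ends in it, and Adamts4-202 and Adamts4-203 have the same 9 exons apart from 3 bases at their ends.

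In N-cre;Fox1 hippocampi more of the counts of Ptprz1 went to the short receptor and fewer to phosphacan, while the sum over the gene differed by less than the spread between mice. The short receptor Ptprz1-204 had normalized counts of 2280, 2575 and 2331 in N-cre mice and of 4945, 4484 and 4215 in N-cre;Fox1 mice. Every N-cre;Fox1 mouse was thus above every N-cre mouse, with a ratio of the means of 1.90 and a log2 fold change of 0.92 (SE 0.0758, 95% confidence interval 0.74 to 1.11). Phosphacan, Ptprz1-206, was at 4052, 4314 and 4053 in N-cre and at 1999, 2269 and 2366 in N-cre;Fox1 mice. Here every N-cre;Fox1 mouse was below every N-cre mouse, at 0.534 of the N-cre mean and a log2 fold change of -0.90 (SE 0.0702, 95% confidence interval -1.07 to -0.73). The long receptor Ptprz1-201 was at 3616, 3777 and 4003 in N-cre and at 3458, 3669 and 3598 in N-cre;Fox1 mice. The genotypes overlapped for it, and its log2 fold change was -0.09 (SE 0.0494, 95% confidence interval -0.21 to 0.03). These intervals take no account of how the gene was chosen and are no test. In edgeR 0 of all 50556 isoforms tested had an adjusted p under 0.05.

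Summed over all 6 isoforms, Ptprz1 had normalized counts of 10076, 10826 and 10587 in N-cre and of 10578, 10619 and 10368 in N-cre;Fox1 mice. The means were 10497 ± 383 and 10521 ± 135 (SD, n = 3), and the 95% confidence interval of the log2 fold change ran from -0.08 to 0.08. The sum of Ptprz1-204 and Ptprz1-206 alone was 6535 ± 308 in N-cre and 6759 ± 181 in N-cre;Fox1 mice (SD, n = 3), and the genotypes overlapped. On the scale of counts, which takes no account of length, what one of these isoforms gained was therefore close to what the other lost. Both receptor forms together, the transcripts that encode the membrane span and the phosphatase, were at 5896, 6353 and 6334 in N-cre and at 8403, 8152 and 7814 in N-cre;Fox1 mice, again without overlap.

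**Figure D2:**
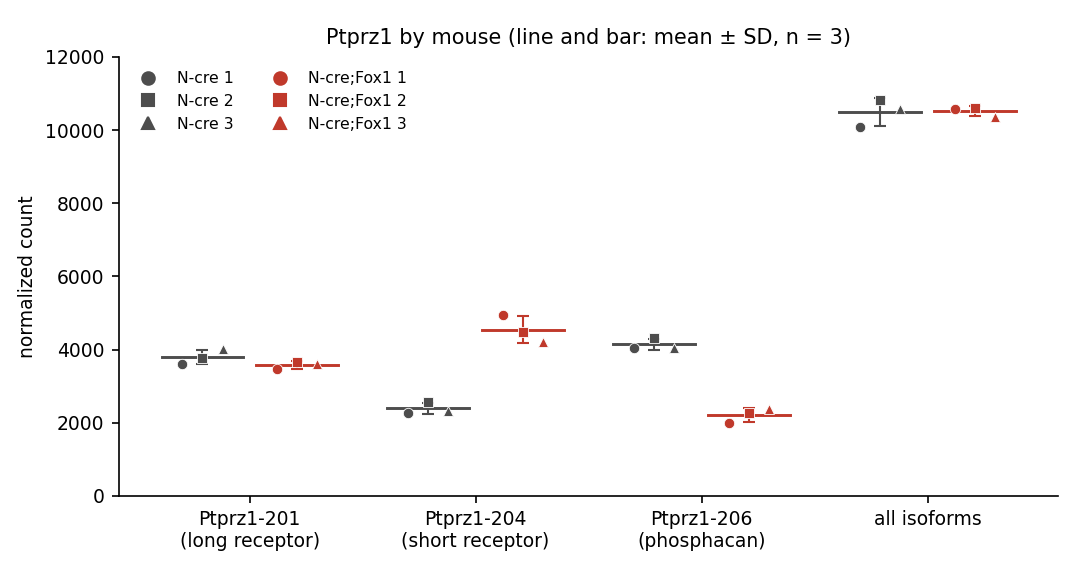
The y axis is the normalized count of the 3 main isoforms of Ptprz1 and of the gene as a whole, each point is a mouse and lines with bars are the mean ± SD of 3 mice. The N-cre;Fox1 mice lie between 4215 and 4945 for Ptprz1-204, all above the N-cre mice, and between 1999 and 2366 for Ptprz1-206, all below them, while the sums over all isoforms overlap.

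As a share of the counts of the gene, which does not depend on library size, Ptprz1-204 held 22.6%, 23.8% and 22.0% in N-cre mice and 46.8%, 42.2% and 40.8% in N-cre;Fox1 mice. Its mean share went from 22.8% ± 0.881 to 43.2% ± 3.14 (SD, n = 3), a difference of 20.4 percentage points, and N-cre;Fox1 replicate 1 had the highest. The share of Ptprz1-206 was 40.1%, 39.8% and 38.3% in N-cre and 18.9%, 21.4% and 22.9% in N-cre;Fox1 mice, a difference of -18.4 points between the means. Ptprz1-201 held 36.2% ± 1.53 in N-cre and 34.0% ± 1.13 in N-cre;Fox1 mice (SD, n = 3). Its shares did not overlap either, with a difference of -2.17 points.

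A longer transcript yields more read pairs, so counts were also divided by the annotated length to compare numbers of transcripts. On that scale the short receptor made up 29.98% ± 1.02 of Ptprz1 transcripts in N-cre and 52.6% ± 3.19 in N-cre;Fox1 mice, and phosphacan 37.3% ± 0.86 and 18.5% ± 1.96 (SD, n = 3). The most common form was thus phosphacan in N-cre and the short receptor in N-cre;Fox1 mice. Short receptor and phosphacan combined were 67.3% ± 1.63 of transcripts in N-cre and 71.0% ± 1.31 in N-cre;Fox1 mice (SD, n = 3), without overlap. Per length the short receptor thus gained more than phosphacan lost. Receptor forms together were 58.7%, 59.1% and 59.7% of transcripts in N-cre and 80.3%, 77.3% and 76.3% in N-cre;Fox1 mice. Transcripts with the whole exon 12, long receptor and phosphacan combined, went the other way, from 66.5% ± 0.903 to 43.8% ± 3.08 (SD, n = 3).

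The remaining isoforms of Ptprz1 are retained introns with few counts. Ptprz1-202, which covers only the 3′ end of the gene, was at 137 to 177 in the N-cre mice and at 151 to 185 in the others. Ptprz1-203 was at 9.88, 12.4 and 12.3 in N-cre and at 15.99, 17.7 and 13.2 in N-cre;Fox1 mice, without overlap but with a 95% confidence interval of the log2 fold change from -0.39 to 1.37. Ptprz1-205 did not pass the filter and was listed at 0 in 5 of the 6 mice.

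How firmly the reads place these forms depends on the sequence that only 1 of them has. Of all 150-base windows of Ptprz1-206, 28.7% occur in no other annotated isoform of the gene, and these are the 1932 that reach into its own end. For Ptprz1-204 they are 148 windows or 3.08%, those across its junction between exons 12 and 13. For Ptprz1-201 they are 667 or 8.42%, which lie across its own junction of these exons and at its longer annotated ends. How far the count of Ptprz1-201 rests on these ends was not tested. The count of Ptprz1-204 was thus estimated from 1 junction and from the balance of the shared exons, and that of Ptprz1-206 from a long stretch of its own. The 2547 bases of exon 12 that Ptprz1-204 lacks hold 4 copies of TGCATG, the word that Rbfox proteins bind in RNA, and the spliced Ptprz1-204 holds 0. Ptprz1-201 has 5 copies in its spliced sequence and Ptprz1-206 has 4, and the word was found in 87.8%, 75.1% and 85.6% of all tested isoforms within 10% of the length of Ptprz1-201, Ptprz1-204 and Ptprz1-206. Its reverse complement CATGCA, which can share bases with it, occurs 5, 3 and 3 times in the 3 isoforms and 2 times in the 2547 bases that Ptprz1-204 lacks. The percentages are of isoforms that hold the word at all, and none was taken for a stretch like these 2547 bases. A match is a description of the sequence only, and introns were not searched.

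Leaving out both libraries with high choroid plexus markers, an alternative chosen after seeing the data, gave a share difference of 20.6 points for Ptprz1-204 and of -19.1 points for Ptprz1-206. Ptprz1 lies on the chromosome of the Gt(ROSA)26Sor locus, 90 Mb from it. The transgene and any sequence of the stem cells' strain around it come with the same mice and cannot be told apart. In bulk tissue, fewer cells of a type and less RNA per cell cannot be told apart either. The sums of the astrocyte markers given above did not overlap, with 2 of the 6 markers below 0, and the summed markers of oligodendrocyte precursors, the other cells known for Ptprz1, overlapped at 6285 to 6669 and 6351 to 6548. The part of either cell type in the isoform shift was not tested.

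Of all genes, those whose summed counts followed Ptprz1 most closely over the 6 mice were Vgll3, Riok1 and Fpgt, with Pearson's r of log2 values of 0.979, 0.974 and 0.965 among 13739 genes. As the sum of Ptprz1 varied little, these describe small differences between libraries.

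Adamts4 encodes a secreted protease that cuts brevican and other lecticans. It lies at chr1:171250421-171260637 on the forward strand of mm10 and has 3 annotated isoforms, of which Adamts4-202 and Adamts4-203 carry nearly all counts. These have the same 9 exons, and Adamts4-202 contains the whole of Adamts4-203 with 2 more bases at its 5′ end and 1 more at its 3′ end. Their annotation differs besides in the start codon, which lies 36 bases further upstream in Adamts4-203, so that it is annotated with 845 codons and Adamts4-202 with 833. The stretch that holds both start codons, chr1:171250813-171250872, is shown with the start codons in capitals, since both isoforms contain all of it.
Adamts4: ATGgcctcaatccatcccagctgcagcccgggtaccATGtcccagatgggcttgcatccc

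In the estimates of RSEM, the counts of Adamts4 lay with Adamts4-203 in N-cre and with Adamts4-202 in N-cre;Fox1 mice, while the sums over the gene overlapped. Adamts4-202 was at normalized counts of 60.8, 31.5 and 29.9 in N-cre and of 1000, 1504 and 1835 in N-cre;Fox1 mice. Adamts4-203 was at 1268, 1362 and 1572 in N-cre and at 99.5, 59.7 and 20.6 in N-cre;Fox1 mice. On the log2 scale the fold changes were 5.10 (SE 0.378, 95% confidence interval 4.18 to 6.02) and -4.55 (SE 0.512, 95% confidence interval -5.80 to -3.30), and for neither isoform did the genotypes overlap. As for Ptprz1, these intervals take no account of how the gene was chosen and are no test. The share of Adamts4-202 in the counts of the gene went from 2.84% ± 1.43 to 94.5% ± 3.54 (SD, n = 3). Adamts4-201, a shorter form with 648 codons, was at 29.4, 31.9 and 17.9 in N-cre and at 0, 27.7 and 16.3 in N-cre;Fox1 mice, which overlapped.

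The sum of the 3 isoforms was 1356, 1424 and 1621 in N-cre and 1100, 1590 and 1876 in N-cre;Fox1 mice. The genotypes overlapped, the means were 1467 ± 138 and 1522 ± 393 (SD, n = 3), and the 95% confidence interval of the log2 fold change was -0.52 to 0.63. A moderate difference of the gene in either direction lies inside it, and its log2 fold change of 0.06 became -0.12 without N-cre;Fox1 replicate 3 and 0.25 without N-cre;Fox1 replicate 1. The order of the N-cre;Fox1 mice followed the markers of oligodendrocytes, which summed to 226717, 220378 and 248823 in N-cre against 216333, 231743 and 261950 in replicates 1, 2 and 3 of N-cre;Fox1. The part of the number of oligodendrocytes in the level of Adamts4 was not tested. Rlbp1, Erf and Smg8 followed the sum of Adamts4 most closely over the 6 mice, with Pearson's r of 0.993, 0.993 and 0.988 among 13739 genes.

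The division between Adamts4-202 and Adamts4-203 rests on almost no sequence. Of 4237 windows of 150 bases in Adamts4-203, 0 are absent from the other isoforms, and of 4240 in Adamts4-202 only 2 are. A read inside the shared 4386 bases fits both, so that only reads that end in the 3 outer bases tell them apart. Whether the RNA of these mice differed at its ends was not tested.

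**Figure D3:**
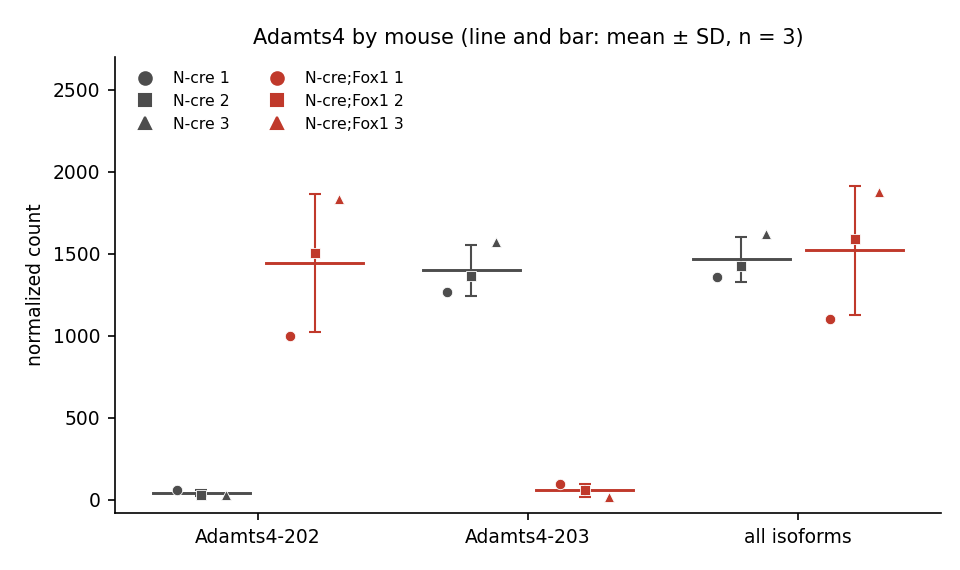
The y axis is the normalized count of Adamts4-202, Adamts4-203 and the gene as a whole, each point is a mouse and lines with bars are the mean ± SD of 3 mice. Adamts4-202 lies at 29.9 to 60.8 in N-cre and at 1000 to 1835 in N-cre;Fox1 mice, Adamts4-203 the other way round, and the sums overlap.

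The place of both genes among all share differences describes how they were chosen. Over 30765 isoforms of genes with a mean count of at least 1000, 0.367% had shares that did not overlap and differed by at least 10 points. Adamts4-202 and Adamts4-203 ranked 1 and 2 by the size of the difference, Ptprz1-204 ranked 19 and Ptprz1-206 ranked 25. Of the 8 isoforms of both genes that passed the filter, 5 had counts that did not overlap, against 11.5% of all isoforms tested. Nothing is read from these ranks and counts, since they are what the genes were chosen by.

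No matrix gene passed the test in the sum over its isoforms, and most of their confidence intervals were narrow. In edgeR over all genes, 0 of 8 had an adjusted p under 0.05, against 0.0264% of all genes tested, and 0 had an unadjusted p under 0.05, against 6.19%. DESeq2's Wald test also gave 0 of 8 at an adjusted p under 0.05, against 50 of all 18924 genes. The genotypes overlapped for all 8, where they did not for 12.1% of all genes. Their log2 fold changes ran from -0.10 to 0.15, 6 above and 2 below 0, with a median of 0.04 against 0.00 over all genes, and adjusted p-values from 0.849 to 0.999.

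Among the lecticans, brevican (Bcan) is the most abundant in adult brain and is cut by ADAMTS4. It had normalized counts of 15662, 15375 and 15958 in N-cre and of 16117, 15042 and 15858 in N-cre;Fox1 mice, and the 95% confidence interval of its log2 fold change, -0.09 to 0.09, was the narrowest of the 8. Neurocan (Ncan), a secreted lectican of neurons and astrocytes, was at 11688, 11115 and 11227 in N-cre and at 11925, 11187 and 12405 in N-cre;Fox1 mice, with a log2 fold change of 0.06 (95% confidence interval -0.03 to 0.16, adjusted p = 0.895 in edgeR). Of the N-cre;Fox1 mice, replicates 1 and 3 lay above every N-cre mouse and replicate 2 among them.

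Versican (Vcan), whose V2 form is the main one at adult nodes of Ranvier, was at 979, 918 and 958 in N-cre and at 1185, 926 and 955 in N-cre;Fox1 mice. One mouse, N-cre;Fox1 replicate 1, was above the rest, and without it the log2 fold change went from 0.10 to -0.01. Aggrecan (Acan), the lectican that marks dense nets, was at 362, 338 and 370 in N-cre and at 426, 315 and 307 in N-cre;Fox1 mice (95% confidence interval of the log2 fold change -0.32 to 0.26, adjusted p = 0.990 in edgeR). The N-cre;Fox1 mice lay on both sides of the N-cre mice. Of the 6 genes taken as markers of parvalbumin interneurons, the cells that carry most nets, 0 had an unadjusted p under 0.05 in edgeR. Over all genes 6.19% had, so a count of 0 among 6 is near that share. Their log2 fold changes ran from -0.07 to -0.01.

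Link proteins fix lecticans to hyaluronan. Hapln1 had normalized counts of 1699, 1615 and 1557 in N-cre and of 1625, 1430 and 1481 in N-cre;Fox1 mice, with the lowest p of the 8 matrix genes at a log2 fold change of -0.10 (95% confidence interval -0.23 to 0.03, adjusted p = 0.849 in edgeR). Of the N-cre;Fox1 mice, 2 were below every N-cre mouse. Hapln4, the link protein that holds brevican at inhibitory synapses, was at 5996, 5747 and 5876 in N-cre and at 6329, 5709 and 6542 in N-cre;Fox1 mice, with a log2 fold change of 0.08 (95% confidence interval -0.03 to 0.19, adjusted p = 0.878 in edgeR). Again replicates 1 and 3 of the N-cre;Fox1 mice were above every N-cre mouse and replicate 2 was below.

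The tenascins join lecticans to one another and bind the extracellular part of Ptprz1. Tenascin-R (Tnr), made by oligodendrocytes and some interneurons, was at 7991, 7891 and 7975 in N-cre and at 8663, 7659 and 7780 in N-cre;Fox1 mice, of which replicate 1 was above and the others below the N-cre mice. Tenascin-C (Tnc), which in adult brain is low outside of astrocytes and regions of growth, was at 566, 772 and 737 in N-cre and at 606, 876 and 816 in N-cre;Fox1 mice. It had the widest interval, with a log2 fold change of 0.15 (95% confidence interval -0.27 to 0.57, adjusted p = 0.956 in edgeR), and replicate 1 was the lowest mouse of both groups.

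**Figure D4:**
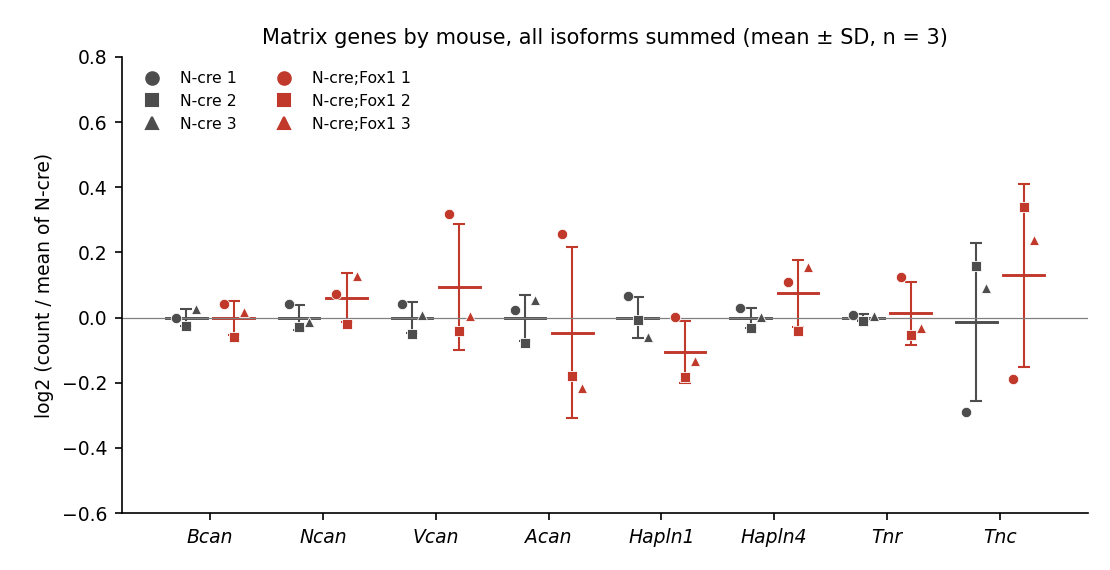
The y axis is the log2 ratio of the normalized count of each mouse, summed over the isoforms of a gene, to the mean of the N-cre mice, each point is a mouse and lines with bars are the mean ± SD of 3 mice. The genotypes overlap for all 8 genes, with the least spread in Bcan and the most in Tnc.

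Per length of transcript, the 10 genes kept their order of level in both genotypes only in part. In TPM, counts per annotated base scaled to the same total in each mouse, Bcan stood first at 305.4 ± 6.67 in N-cre and 305.4 ± 5.88 in N-cre;Fox1 mice (SD, n = 3). Hapln4 at 77.3 ± 1.89 and 81.9 ± 4.66, Ptprz1 at 75.8 ± 3.23 and 82.6 ± 2.20, and Ncan at 74.0 ± 1.73 and 77.7 ± 3.25 came next. Hapln4 and Ptprz1 changed places between the genotypes and differed by less than the larger of their SDs in each. Tnr followed at 31.3 ± 0.418 and 31.5 ± 1.97, Hapln1 at 23.0 ± 1.77 and 20.7 ± 1.35, and Adamts4 at 15.8 ± 1.54 and 16.4 ± 4.30. In N-cre;Fox1 mice Hapln1 and Adamts4 differed by less than the SD of Adamts4. Vcan came next at 5.75 ± 0.237 and 6.65 ± 0.85, then Tnc at 4.58 ± 0.747 and 5.10 ± 0.998, and Acan was lowest at 2.73 ± 0.104 and 2.53 ± 0.339. The higher level of Ptprz1 on this scale in N-cre;Fox1 mice goes with the shorter mean length of its isoforms, since its summed counts were level.

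No isoform of the matrix genes passed the test either. Of their 32 isoforms 19 passed the filter, 4 were listed at 0 in every mouse, and 9 more were too low to test. In edgeR, 0 of 19 had an adjusted p under 0.05, where 0% of all isoforms tested did, and 0 had an unadjusted p under 0.05, against 4.78%. DESeq2's Wald test called 0 of them too, against 215 of all 50556 isoforms, and the lowest adjusted p in edgeR was 0.990. Counts overlapped between the genotypes for all 19, of which 11 had log2 fold changes above and 8 below 0.

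Bcan gave most of its counts to Bcan-201, the coding form with 883 codons, which held 69.8% ± 0.397 in N-cre and 68.5% ± 2.10 in N-cre;Fox1 mice (SD, n = 3, exact permutation p = 0.5, two-sided). Nearly all of the rest were retained introns, 30.2% ± 0.402 and 31.5% ± 2.10 in all. Among these Bcan-203 was at 15.4% ± 2.22 and 18.3% ± 2.67 (exact permutation p = 0.2) and Bcan-206 at 12.2% ± 1.94 and 10.6% ± 0.498 (exact permutation p = 0.3). Bcan-203 has no window of 150 bases of its own. Per annotated base, Bcan-201 held 53.5% ± 1.1 in N-cre and 52.8% ± 1.55 in N-cre;Fox1 mice, and the retained introns 46.45% ± 1.11 and 47.2% ± 1.55 (SD, n = 3). With 3 mice against 3, no exact permutation p can be below 0.1.

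Vcan is spliced into forms that differ in 2 large exons for chondroitin sulfate attachment. Vcan-203, with 3354 codons the form with both exons (V0), had normalized counts of 773, 728 and 793 in N-cre and of 870, 679 and 738 in N-cre;Fox1 mice. Vcan-202, with 1615 codons the V2 form, was at 179, 155 and 112 in N-cre and at 274, 203 and 158 in N-cre;Fox1 mice. It had the lowest p of the matrix isoforms, 0.102 before and 0.990 after adjustment in edgeR, at a log2 fold change of 0.51 (95% confidence interval -0.13 to 1.15), and the genotypes overlapped. The share of Vcan-203 went from 80.3% ± 2.23 to 74.7% ± 2.34 (SD, n = 3). It was the only 1 of the 19 tested matrix isoforms whose shares did not overlap. How many of all isoforms do so at any size of difference was not counted. Its exact permutation p was the smallest possible, 0.1, so nothing is read from it. The share of Vcan-202 went from 15.6% ± 3.48 to 20.6% ± 3.48 (exact permutation p = 0.3). Per annotated base, Vcan-203 held 50.3% ± 4.31 in N-cre and 43.6% ± 2.01 in N-cre;Fox1 mice, and Vcan-202 21.1% ± 4.08 and 26.4% ± 6.07 (SD, n = 3). Of the 5553 windows of 150 bases of Vcan-202, 145 occur in no other isoform of the gene. Vcan-208, a short form of 140 codons, was at 10.8 to 31.9 and at 14.6 to 32.8. Vcan-206, the V1 form, was listed at 0 in all 6 mice, where 147 of its 8183 windows of 150 bases occur in no other isoform of the gene.

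Acan gave 89.1% ± 1.64 of its counts in N-cre and 92.7% ± 4.60 in N-cre;Fox1 mice to the full form Acan-201 (SD, n = 3, exact permutation p = 0.4). Per annotated base, Acan-201 held 74.4% ± 3.28 and 82.2% ± 9.8. The short form Acan-202 was at 43.7, 39.1 and 33.3 in N-cre and at 17.2, 16.7 and 38.5 in N-cre;Fox1 mice, of which 1 lay among the N-cre mice (log2 fold change -0.69, adjusted p = 0.990 in edgeR). Tnc was split between Tnc-203, with 2110 codons, and Tnc-204, with 2019. Tnc-203 held 52.5%, 56.4% and 56.8% in N-cre and 38.3%, 53.2% and 71.7% in N-cre;Fox1 mice. Its means of 55.2% ± 2.35 and 54.4% ± 16.7 were close (exact permutation p = 1), and the spread lay among the N-cre;Fox1 mice. Tnc-201, which has no window of its own, was listed at 49.0 in N-cre replicate 3 and at 0 elsewhere.

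By counts, the other genes had 1 main isoform each. Hapln1-201 held 93.6% ± 0.851 and 94.2% ± 0.351, Hapln4-201 held 99.7% ± 0.118 and 99.7% ± 0.0513, and Tnr-202 held 99.9% ± 0.0464 and 99.9% ± 0.0373 of the counts of their genes (SD, n = 3). Per annotated base, Hapln1-201 held 54.4% ± 3.63 and 56.9% ± 1.6. Hapln1-202 and Hapln4-203 are retained introns at normalized counts of 79.8 to 119.5 and 13.9 to 27.98 over the 6 mice. Ncan has a single annotated isoform.

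**Figure D5:**
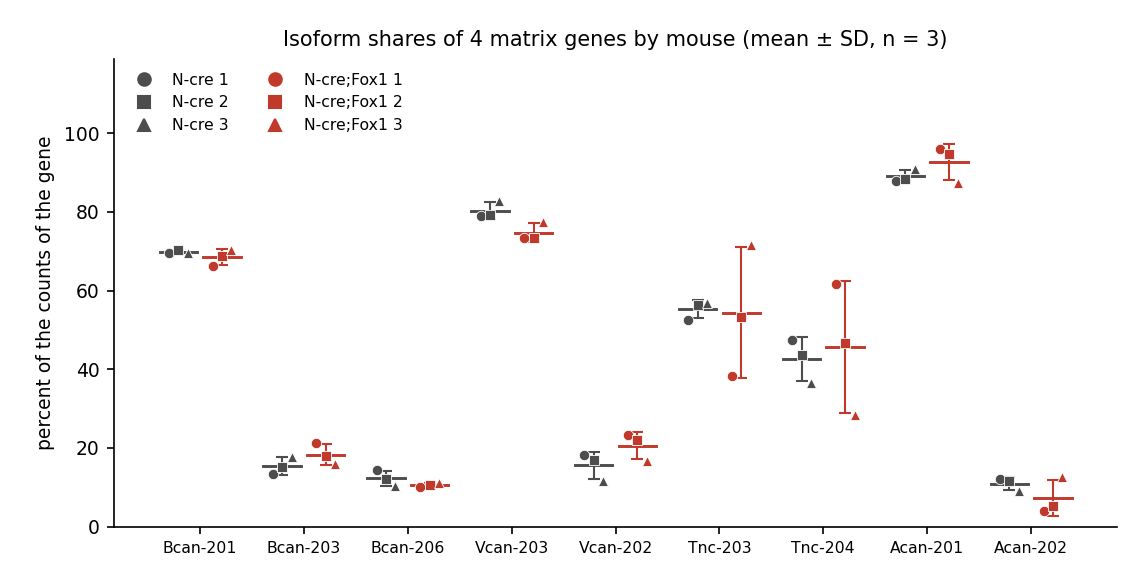
The y axis is the percent of the counts of a gene that an isoform holds, for the main isoforms of Bcan, Vcan, Tnc and Acan, each point is a mouse and lines with bars are the mean ± SD of 3 mice. Only Vcan-203 has shares without overlap, from 78.8% to 82.9% in the N-cre mice against 73.3% to 77.4%, and Tnc-203 and Tnc-204 spread most among the N-cre;Fox1 mice.

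The genes that act on this matrix also held none past the adjusted test. Of 84 gene names in 5 lists, 80 were tested, 49 with log2 fold changes above and 31 below 0 and a median of 0.03. In edgeR, 0 had an adjusted p under 0.05, against 0.0264% of all genes, and 6, or 7.5%, had an unadjusted p under 0.05, which is near the 6.19% of all genes. These 6 had log2 fold changes above 0. Of the 10 ligands and partners of Ptprz1, 5 were above and 5 below 0. Midkine (Mdk), a heparin-binding growth factor that binds Ptprz1, was at 371, 342 and 382 in N-cre and at 431, 398 and 395 in N-cre;Fox1 mice, without overlap (log2 fold change 0.16, adjusted p = 0.852 in edgeR). Contactin 1 (Cntn1), an adhesion molecule of axons that binds its extracellular part, was at 17639, 17992 and 17357 in N-cre and at 19264, 19003 and 18127 in N-cre;Fox1 mice (log2 fold change 0.09, adjusted p = 0.799 in edgeR).

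Of 23 genes listed as lectican proteases and inhibitors, 21 were tested, 17 of them above 0, and log2 fold changes ran from -0.12 to 0.42. The list is broad, with Plat and Furin among its members, so these counts do not describe the cutting of lecticans alone. Counts without overlap were found for 2 of the 21, against 12.1% of all genes. Serpine2, an inhibitor of thrombin and plasminogen activators that astrocytes make, was at 7366, 7290 and 7121 in N-cre and at 8667, 7783 and 7939 in N-cre;Fox1 mice (log2 fold change 0.16, adjusted p = 0.636 in edgeR). Adamts9, a related protease, was at 555 to 610 and 615 to 622, with a log2 fold change of 0.11 (adjusted p = 0.895 in edgeR).

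Of 29 names listed for enzymes that build or cut hyaluronan and chondroitin sulfate, 27 were tested, 15 above and 12 below 0. Of these names, Cemip2 and Tmem2 stand for the same gene, which was tested as Tmem2. Xylt1, which starts the chondroitin sulfate chain, was at 3956, 4269 and 4087 in N-cre and at 4315, 4434 and 4537 in N-cre;Fox1 mice (log2 fold change 0.11, adjusted p = 0.769 in edgeR). Its relative Xylt2 was lower, at 1560 to 1651 and 1470 to 1553 (log2 fold change -0.11, adjusted p = 0.799 in edgeR). The hyaluronidase Hyal2 had a log2 fold change of 0.10 (adjusted p = 0.912 in edgeR) and the sulfotransferase Chst12 one of -0.13 (adjusted p = 0.834 in edgeR), both without overlap.

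Of 12 other matrix proteins, 6 were above and 6 below 0. Sparcl1 (hevin), a matrix protein of astrocytes that organizes synapses, had the lowest adjusted p of the 80 genes, 0.350 in edgeR. It was at 93007, 87433 and 85434 in N-cre and at 105223, 100323 and 103124 in N-cre;Fox1 mice, without overlap (log2 fold change 0.22, 95% confidence interval 0.12 to 0.31). Of the 10 receptors for the matrix, 6 were above and 4 below 0. None had an unadjusted p under 0.05 in edgeR, against 6.19% of all genes. Sparcl1 and Serpine2, which did not pass the adjusted test, are genes of astrocytes, whose markers are given above. The part of astrocytes in these values was not tested.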

How the data were processed

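The authors used cutadapt 1.18 for trimming, STAR 2.5.2b for mapping to mm10 and quantified GENCODE M16 isoforms with RSEM 1.3.0. They deposited the expected counts of 133944 isoforms per mouse, not normalized and not filtered. The libraries were made with a stranded kit for total RNA from 3 biological replicates per genotype. The strand setting of the counting is not given in the sources used here.

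Expected counts were rounded, summed by gene symbol for gene tests, filtered with filterByExpr (minimum count 10, minimum total 15), normalized by TMM and tested with edgeR 4.0.16 in R 4.3.3 (quasi-likelihood, robust), on genotype alone. P-values were adjusted over all features after Benjamini and Hochberg, with a threshold of 0.05. Exact permutation tests of shares were run in SciPy 1.17.1. Exons, lengths and sequences came from GENCODE M21 on mm10, which holds 130826 of the isoforms. A unique window is a stretch of 150 bases, the read length, found in no other isoform of its gene. The fits were also run on simulated counts, and the outcome is not given here. The simulation did not include how RSEM divides reads between isoforms. Depth was 40463587 to 62141336 read pairs, and errors are given as the spread between mice, which holds counting error too.

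The members, the gene lists and the tests were chosen with earlier results of these data known. Named were all member genes, the tested isoforms of Ptprz1 and Adamts4, up to 3 isoforms of each matrix gene by mean count, up to 2 genes per list and direction with the lowest p and no overlap, and the 3 genes of highest correlation with Ptprz1 and Adamts4 at a mean count of at least 100. Other genes and isoforms named were chosen after their values were seen. The alternatives were the Wald test and, separately, the size factors of DESeq2 1.42.0, a minimum of 1 count in total or of 10 counts in each mouse in place of the filter, unrounded counts, a block for the replicate number, each mouse left out in turn, shares per annotated base or over tested isoforms only, and, added after seeing the data, both libraries with high choroid plexus markers left out. Allele-specific reads, introns and protein sequences were not analysed here.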

Additional observations from a re-analysis of the deposited data

How the results depend on the processing

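The number of isoforms with an adjusted p under 0.05 was 0 and became 10 without the filter on low counts, 6 with at least 10 counts in every mouse, 1 with counts not rounded and 215 in DESeq2's Wald test, and stayed at 0 to 0 with each mouse left out. The number of genes was 5 and became 45 without the filter, 50 in DESeq2's Wald test, and with a mouse left out 2 (without N-cre replicate 2), 3 (without replicate 3 of either genotype) to 28 (without N-cre;Fox1 replicate 1). None of these alternatives called a matrix gene or a matrix isoform. The share differences of 5 isoforms of Ptprz1 and Adamts4 kept their direction in every alternative, at 18.7 to 21.7 points for Ptprz1-204, -19.3 to -17.3 for Ptprz1-206, -2.83 to -1.33 for Ptprz1-201, 89.9 to 93.4 for Adamts4-202 and -92.9 to -88.9 for Adamts4-203 with a mouse left out. That of Ptprz1-201 moved to -3.79 points per annotated base.

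Log2 fold changes near 0 changed sign when a mouse was left out, and the cause was not tested. The ranges were -0.02 to 0.03 for Ptprz1, -0.12 to 0.25 for Adamts4, -0.01 to 0.03 for Bcan, -0.01 to 0.17 for Vcan, -0.19 to 0.05 for Acan and -0.04 to 0.05 for Tnr, and for isoforms -0.04 to 0.15 for Ptprz1-202, -0.11 to 0.07 for Vcan-203, -0.43 to 0.24 for Vcan-208, -0.17 to 0.15 for Acan-201, -0.15 to 0.30 for Hapln4-203, -0.05 to 0.04 for Tnr-202 and -0.14 to 0.45 for Tnc-203. With both libraries of high choroid plexus markers left out, the log2 fold change became 0.06 for Acan, 0.00 for Bcan-201, 0.10 for Vcan-203 and -0.01 for Tnc-204.

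The labels do not say what the replicate numbers mark. Deviations from the group means correlated at 0.712, -0.222 and -0.379 over 13740 genes for mice numbered 1, 2 and 3. They correlated at 0.755 for N-cre replicate 3 with N-cre;Fox1 replicate 2, the libraries with high choroid plexus markers. For N-cre replicate 2 with N-cre;Fox1 replicate 3 the value was 0.561, and for the other pairs of unlike number -0.6 to -0.028. The mice numbered 1 are those with high Xist, so whether the numbers pair the mice cannot be told from these values. With the replicate number as a block, 5 genes and 0 isoforms had an adjusted p under 0.05, and Vcan-208 went to a log2 fold change of 0.01. The effect of depth on the division between Adamts4-202 and Adamts4-203 was not tested.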

Other observations

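Pairs of isoforms as alike as Adamts4-202 and Adamts4-203 were looked for in the whole table, as the same inner exon borders with ends that differ by at most 10 bases in all and a mean normalized count of the pair of at least 100. There were 48 such pairs, among them some whose ends differ by 0 bases, such as Nova2-201 and Nova2-202. Reads cannot tell these apart, and each isoform held 50% of its pair in both genotypes. Their shares could not move, which lowers the median range given next. The share of one isoform in its pair ranged over the 6 mice by a median of 4.38 percentage points, and by more than 90 points in 6 pairs. Besides Adamts4 these belonged to Katna1, Ppp1r26, Phlpp2 and, with 2 pairs that share an isoform, Mdfic, which are named because of these values. In Katna1 the mean share of Katna1-201 was 95.9% in N-cre and 31.9% in N-cre;Fox1 mice, and in Ppp1r26 that of Ppp1r26-201 was 37.7% and 92.4%, with overlap between the genotypes in both. Adamts4 was the only 1 of the 48 pairs whose members moved in opposite directions without overlap, and it was chosen for that difference. The pairs whose ends differ by 0 bases could not have done so.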
